A study of Mus musculus with 8 samples.

Results

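The genes of ketone body use and transport were taken as 5 members, found by symbol among the 16994 genes of the deposited count table: *Slc16a1*, *Bdh1*, *Oxct1*, *Acat1*, and *Bdh2*. All 5 were in the table and all 5 passed the filter on low values, a mean CPM (counts scaled to library size) of 1 or more, as did 12999 genes in all. Levels given below are CPM after further scaling with TMM factors. The libraries came from bulk RNA of hearts of male mice, with 1 library for each genotype and region and so no replicate of any group. WT mice were compared with TKO mice, which lack TIGAR, a fructose-2,6-bisphosphate phosphatase, in the whole body, so that a TKO library does not separate loss in cardiomyocytes from loss elsewhere. Infarct, border, and remote zones of the left ventricle were taken 4 weeks after permanent ligation of the left anterior descending coronary artery, performed at 16 weeks of age, in both genotypes. The remaining library of each genotype is labelled left ventricle (LV) and served as the reference here, and the sources used here do not name whether those mice had a sham operation. Each heart was divided into its zones, so zone libraries of a genotype may share animals, and RNA of 3 mice was pooled for the infarct zone.

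Ketone bodies are made mainly in the liver and burned in extrahepatic tissue, with the heart among the avid users. β-Hydroxybutyrate and acetoacetate enter cells through monocarboxylate transporters, of which MCT1, the product of *Slc16a1*, is the main one in cardiomyocytes. In the mitochondrion BDH1 oxidizes β-hydroxybutyrate to acetoacetate, SCOT (*Oxct1*) transfers coenzyme A from succinyl-CoA onto acetoacetate, and the thiolase encoded by *Acat1* splits acetoacetyl-CoA into acetyl-CoA for the TCA cycle. BDH2 is a cytosolic dehydrogenase of the short-chain family that also takes part in iron handling.

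On GRCm38, *Slc16a1* (ENSMUSG00000032902) lies on the plus strand at chr3:104638668-104658462 and *Bdh1* (ENSMUSG00000046598) on the plus strand at chr16:31422280-31458901. *Oxct1* (ENSMUSG00000022186) is on the plus strand at chr15:4026383-4155344, *Acat1* (ENSMUSG00000032047) on the minus strand at chr9:53580522-53610382, and *Bdh2* (ENSMUSG00000028167) on the plus strand at chr3:135281221-135304426. No other gene of the count table overlapped any of the 5. RefSeq promoter windows (GRCm38.p6), from 250 bases before to 50 bases after the annotated start, were matched by symbol for 4 of the 5 genes, and *Acat1* had no entry. The windows of *Slc16a1* and *Oxct1*, whose RNA was lower in the infarct zone, and of *Bdh2*, whose RNA was higher, are shown on the plus strand to set the transporter and the mitochondrial enzyme beside the gene that moved the other way. They span chr3:104638414-104638713, chr15:4026178-4026477, and chr3:135280971-135281270, and capitals mark an E-box (CACGTG).
*Slc16a1*: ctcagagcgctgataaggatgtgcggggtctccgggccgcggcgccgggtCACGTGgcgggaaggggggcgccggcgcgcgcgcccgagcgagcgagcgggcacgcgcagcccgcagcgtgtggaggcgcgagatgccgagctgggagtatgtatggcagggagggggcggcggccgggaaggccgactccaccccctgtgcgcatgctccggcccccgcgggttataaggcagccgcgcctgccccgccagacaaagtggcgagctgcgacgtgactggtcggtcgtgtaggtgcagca
*Oxct1*: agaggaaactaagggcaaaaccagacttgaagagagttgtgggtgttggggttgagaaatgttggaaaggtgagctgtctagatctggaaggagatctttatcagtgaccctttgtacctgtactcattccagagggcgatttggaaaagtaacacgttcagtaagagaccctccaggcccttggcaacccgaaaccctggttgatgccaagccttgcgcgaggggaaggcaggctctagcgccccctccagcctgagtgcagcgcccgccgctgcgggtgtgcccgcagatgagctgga
*Bdh2*: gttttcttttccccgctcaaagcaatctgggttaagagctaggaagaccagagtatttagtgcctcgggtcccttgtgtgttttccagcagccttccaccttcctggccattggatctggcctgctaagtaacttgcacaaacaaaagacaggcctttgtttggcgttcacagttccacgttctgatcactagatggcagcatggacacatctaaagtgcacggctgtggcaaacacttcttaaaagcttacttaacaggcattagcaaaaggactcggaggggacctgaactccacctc
The *Slc16a1* window was a CpG-rich one, with 42 CpG dinucleotides and 73.7% G+C, whereas *Oxct1* had 11 CpG and 55.3% and *Bdh2* had 6 CpG and 48.7%. The median of 32851 RefSeq promoter windows was 7 CpG and 52.7%. Motifs were searched on both strands. The E-box occurs in 7.15% of all windows. The extended site of estrogen-related receptors, TCAAGGTCA, occurs in 0.423% of them, and the shorter nuclear receptor motif AGGTCA, which also lies within it, in 16.3%. The TATA box was searched for as TATAAA and occurs in 13.6%. The E-box at base 51 of the *Slc16a1* window was the only match among the 5 windows of the 4 genes, which says only that the other letters are not in these 300 bases.

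The libraries held 27429240 to 33799249 counts each, so that 3 counts, taken as the floor, corresponded to 0.0709 to 0.116 CPM after TMM scaling. *Tigar* stood at 25.2 to 71.9 CPM in the 4 WT libraries and at 1.97 to 2.89 CPM in the 4 TKO libraries, in the direction the labels give. Mitochondrial DNA-encoded genes took 20.7% of the counts in the WT infarct zone, 27.9% in the TKO infarct zone, and 36.6% to 39.3% in the other libraries. The 10 cardiomyocyte markers, all detected in every library, summed to 11146 CPM in the WT infarct zone and 22631 CPM in the TKO infarct zone, against 35918 to 49603 CPM in the other 6 libraries. The 8 fibroblast markers summed to 8277 and 6856 CPM in the WT and TKO infarct zones and to 874 to 2995 CPM elsewhere, and the 7 macrophage and leukocyte markers to 1416 and 1057 CPM against 269 to 520 CPM. In bulk tissue, fewer cells of a type and less RNA per cell cannot be told apart. Both remote libraries also carried atrial muscle markers, with sums of the 3 markers of 532 CPM (WT) and 202 CPM (TKO) against 6.46 to 57.8 CPM elsewhere, and the WT LV library carried the most adipocyte marker RNA (58.1 CPM over 4 markers, against 0.888 to 13.8 CPM).

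Read per length, the 5 genes kept nearly 1 order. In CPM per kilobase of merged exons, *Oxct1* was the highest in every library, at 108.7 to 387 per kilobase, and *Acat1* followed at 44.9 to 205. *Slc16a1* (17.0 to 55.3 per kilobase) and *Bdh1* (8.93 to 46.8 per kilobase) came next, and *Bdh2* was far below them at 0.120 to 0.768 per kilobase. *Slc16a1* lay above *Bdh1* in 7 of the 8 libraries and below it in the TKO LV library, the only place where the order changed. The ranges of these 2 neighbours overlap, as do those of *Oxct1* and *Acat1* across libraries. With the longest transcript as the length the order was the same in every library.

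**Figure D1:**
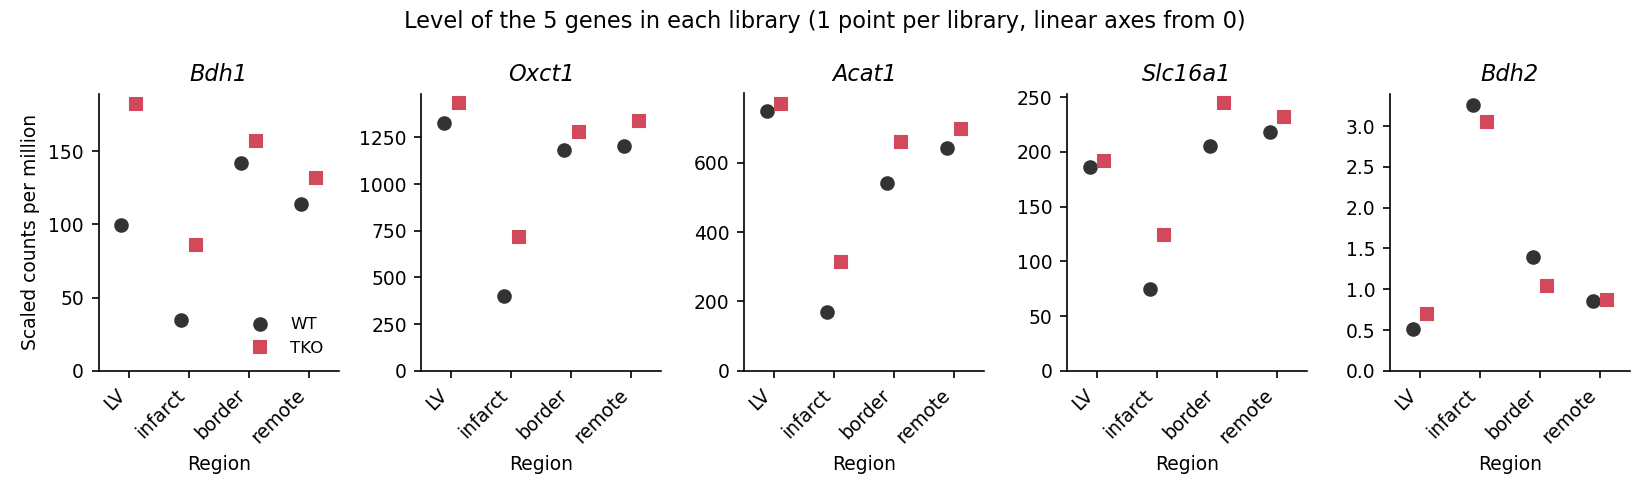
CPM (linear axes from 0, TMM scaling) of the 5 genes by region, with 1 point per library, circles for WT and squares for TKO. The 2 infarct points are the lowest for *Oxct1*, *Acat1*, and *Slc16a1* and the highest for *Bdh2*, while for *Bdh1* the WT LV point (99.5) lies close to the TKO infarct point (86.0).

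The infarct zone was compared with LV over both genotypes, with the quasi-likelihood test of edgeR across all 8 libraries and Benjamini-Hochberg adjustment, and a gene was called at an adjusted p under 0.05. The 2 genotypes stand in for replicates in this test, so it bears on these libraries and not on mice. Of the 5 members, the 4 genes of uptake and mitochondrial oxidation fell and were called lower. *Bdh2* rose, but it passed the filter on low values only through the 2 infarct libraries, so its call is not counted. Among all genes, 28.6% were called lower and 28.2% higher, so calls of either kind were common in this comparison. The median change of the members was -1.27 on the log2 scale, against 0.02 over all genes.

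*Slc16a1*, the transporter, had 186 CPM in the WT LV library and 192 CPM in the TKO LV library. In the infarct zone it had 75.1 CPM (WT) and 124 CPM (TKO), below all 6 other libraries, which reached 245 CPM in the TKO border zone. The change was -0.96 ± 0.19 (log2, SE), with an adjusted p of 0.00600 (edgeR quasi-likelihood test, Benjamini-Hochberg adjustment). The direction held under every scaling, but with total counts in place of TMM factors the change was -0.28 and was not called (adjusted p = 0.109, range over the 14 alternatives 6.69e-06 to 0.109).

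*Bdh1*, which starts the oxidation of β-hydroxybutyrate, was the least regular of the 4. It had 99.5 CPM in the WT LV library and 182 CPM in the TKO LV library, and 34.7 CPM (WT) and 86.0 CPM (TKO) in the infarct zone. The 2 infarct libraries were again the lowest of the 8, but the TKO infarct level lay only a little under that of the WT LV library. The change was -1.27 ± 0.29 (log2, SE; edgeR quasi-likelihood test, Benjamini-Hochberg adjustment, adjusted p = 0.0110). Without the TKO LV library it was -1.09 and no longer called (adjusted p = 0.0535, range over the 14 alternatives 4.25e-05 to 0.0535).

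*Oxct1*, the enzyme that commits acetoacetate to oxidation, had 1325 CPM (WT) and 1434 CPM (TKO) in LV, and 402 CPM (WT) and 718 CPM (TKO) in the infarct zone. The 4 border and remote libraries lay between 1184 and 1339 CPM, well clear of both infarct libraries. It fell by 1.34 ± 0.24 (log2, SE; edgeR quasi-likelihood test, Benjamini-Hochberg adjustment, adjusted p = 0.00397). *Acat1*, the thiolase of the last step, showed the largest fall of the members. Its level was 749 CPM (WT) and 769 CPM (TKO) in LV, and 169 CPM (WT) and 314 CPM (TKO) in the infarct zone, with 543 to 697 CPM in the border and remote libraries. The change was -1.70 ± 0.24 (log2, SE; edgeR quasi-likelihood test, Benjamini-Hochberg adjustment, adjusted p = 0.00193). Both calls were kept under each of the 14 alternatives run, with adjusted p-values up to 0.0190 for *Oxct1* and 0.00807 for *Acat1*.

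*Bdh2* was counted with few reads, 14 (WT) and 18 (TKO) in LV and 138 (WT) and 109 (TKO) in the infarct zone. The border zone had 43 (WT) and 31 (TKO) counts and the remote zone 26 in each genotype. In CPM the infarct libraries stood at 3.26 (WT) and 3.05 (TKO), above the other 6 libraries, whose range was 0.511 to 1.40. The change was 2.38 ± 0.34 (log2, SE). The gene passed the filter on its mean level only through the 2 infarct libraries, so no call is given for it with that filter. With no filter on low counts the change was 2.32 (edgeR quasi-likelihood test, Benjamini-Hochberg adjustment, adjusted p = 0.00252).

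The infarct calls depend on the scaling in their balance of directions. With total counts the infarct over LV median of all genes moved to 0.85 (WT) and 0.55 (TKO) on the log2 scale, and the called genes split into 7869 higher and 1084 lower, against 3670 and 3715 with TMM. *Oxct1* and *Acat1* stayed among the genes called lower under that scaling, and *Bdh2* stayed higher. *Bdh1* moved to -0.61 and was just called (edgeR quasi-likelihood test, Benjamini-Hochberg adjustment, adjusted p = 0.0496, within the range over its alternatives given above).

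Away from the infarct no member was called. Of all genes, 0.715% were called in the border zone against LV. In the remote zone edgeR called 0%, where 1378 genes had an unadjusted p under 0.05 and DESeq2's Wald test called 162. *Slc16a1* was higher in the border and remote zones of both genotypes than in the LV library of the same genotype, with border over LV ratios of 1.10 (WT, 95% counting interval 1.06 to 1.14) and 1.28 (TKO, 1.23 to 1.32). Its remote over LV ratios were 1.17 (1.13 to 1.22) and 1.21 (1.17 to 1.26), while the tests gave adjusted p-values of 0.523 (border) and 0.652 (remote) in the edgeR quasi-likelihood test after Benjamini-Hochberg adjustment. These intervals are exact binomial ones and cover counting error only, and no replicate stands behind a ratio of 2 libraries. *Oxct1* and *Acat1* lay somewhat below LV in each of these 4 pairs, at ratios of 0.892 to 0.934 for *Oxct1* and 0.724 to 0.906 for *Acat1*. *Bdh1* went opposite ways in the 2 genotypes, with border over LV ratios of 1.43 (1.36 to 1.499) in WT and 0.864 (0.829 to 0.900) in TKO. Its remote over LV ratios were 1.15 (1.09 to 1.21) and 0.722 (0.692 to 0.754). *Bdh2* had border over LV ratios of 2.73 (1.47 to 5.41) in WT and 1.504 (0.815 to 2.85) in TKO, and its test over both genotypes gave 1.01 ± 0.35 on the log2 scale (edgeR quasi-likelihood test, Benjamini-Hochberg adjustment, adjusted p = 0.225).

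The members were next set against the cardiomyocyte markers of the same library, since the markers moved with them. All 10 markers were called lower in the infarct zone, with a median change of -1.55 (log2), and all 6 nuclear-encoded mitochondrial reference genes, among them *Cs* and *Sdha*, with a median of -1.61. Relative to the summed cardiomyocyte marker counts the infarct over LV ratio of *Acat1* was 0.943 in WT and 0.894 in TKO. That of *Oxct1* was 1.27 and 1.10, that of *Bdh1* 1.46 and 1.04, and that of *Slc16a1* 1.69 and 1.42. On this scale *Oxct1*, *Bdh1*, and *Slc16a1* were no longer lower in the infarct zone than in LV, while *Acat1* remained below 1 in both genotypes. In scaled counts the marker sum was at 0.239 (WT) and 0.456 (TKO) of its LV value, and the median gene at 1.01 in both. An unchanged gene would therefore read well above 1 per marker count. The *Acat1* count was 13.9 to 16.6 per 1000 marker counts over the 8 libraries, with the TKO infarct zone the lowest. Taken against the median of the single markers the ratios were 0.953 and 0.892 for *Acat1* and 1.70 and 1.42 for *Slc16a1*.

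*Slc16a1* was lowest in LV on this scale in both genotypes. It had 3.99 (WT) and 3.87 (TKO) counts per 1000 cardiomyocyte marker counts in LV and 5.35 to 6.73 in the 6 zone libraries, with no overlap. For *Oxct1* the zones (29.6 to 36.1) also lay above both LV libraries (28.4 and 28.9), by a much narrower gap, and *Bdh2* was the third member with this order. The order is common, since 40.4% of all tested genes had every zone library above both LV libraries on this scale. Within a library, *Slc16a1* counts per *Oxct1* count were 0.141 (WT) and 0.134 (TKO) in LV and 0.173 to 0.191 in the 6 zone libraries. *Oxct1* itself lay below LV in scaled counts in every zone, so an unchanged gene would also rise on this ratio. The share of all genes with this order was not computed. *Bdh2* ran the other way from the cardiomyocyte markers, at 26.7-fold (WT) and 9.62-fold (TKO) its LV value per marker count in the infarct zone. Per 1000 macrophage and leukocyte marker counts it had 1.66 to 2.88 counts in all 8 libraries, and per 1000 fibroblast marker counts 0.394 to 0.825. What part the makeup of the tissue has in these values was not tested.

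**Figure D2:**
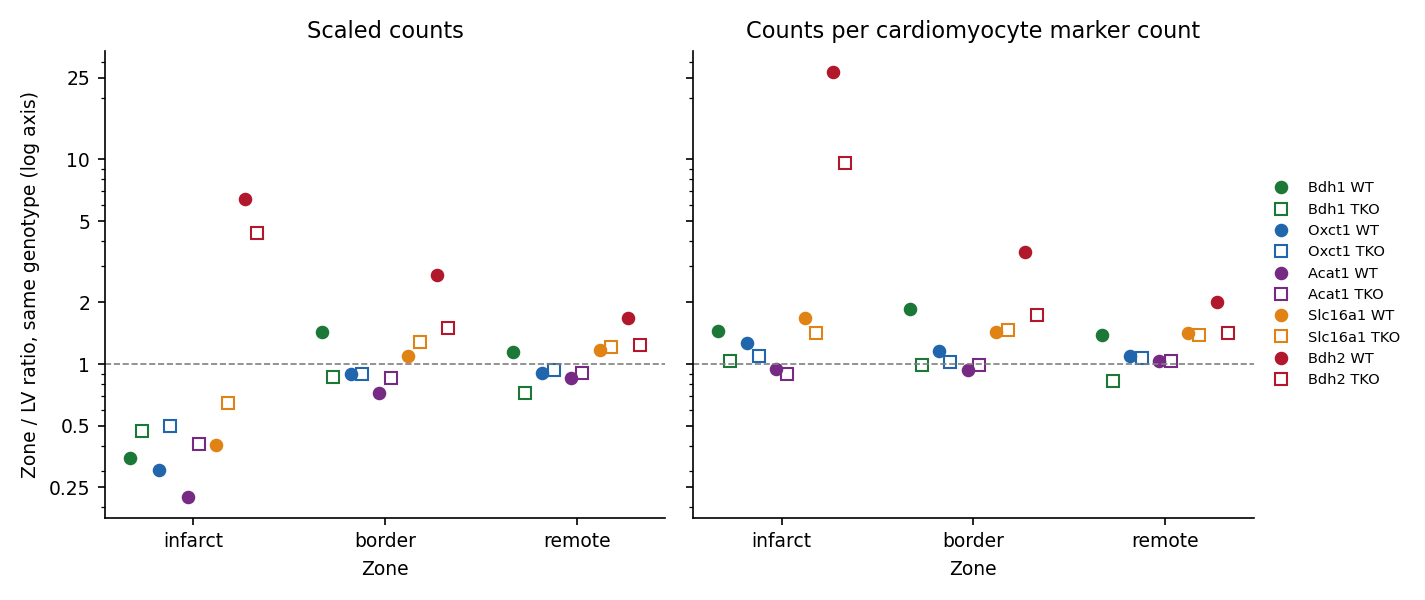
Ratio of each zone to the LV library of the same genotype for the 5 genes (log axes), with filled circles for WT and open squares for TKO, computed from scaled counts (left) and from counts per cardiomyocyte marker count (right). The infarct ratios of *Bdh1*, *Oxct1*, *Acat1*, and *Slc16a1* lie at 0.226 to 0.647 on the left and at 0.894 to 1.69 on the right, and *Bdh2* is above 1 in every zone on both sides.

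TKO was compared with WT over the 4 regions, with the regions as blocks. No member was called, and 0.138% of all genes were. *Bdh1* came nearest, at 0.63 ± 0.21 (log2, SE; edgeR quasi-likelihood test, Benjamini-Hochberg adjustment, adjusted p = 0.246, unadjusted 0.0211). *Slc16a1*, *Oxct1*, and *Acat1* had differences of 0.28 to 0.33 with adjusted p-values of 0.347 to 0.393 by the same test, and *Bdh2* had -0.04 with 0.939. The lowest adjusted p that any alternative gave a member was 0.0623, for *Bdh1* with DESeq2's Wald test. The TKO library was above the WT library in all 4 regions for *Slc16a1*, *Bdh1*, *Oxct1*, and *Acat1*, a pattern that 13.2% of all tested genes shared.

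Within single regions the genotypes were close in LV, except for *Bdh1*. In LV the TKO over WT ratio of *Slc16a1* was 1.03 (0.991 to 1.07), of *Oxct1* 1.08 (1.07 to 1.10), and of *Acat1* 1.03 (1.01 to 1.05), whereas *Bdh1* was at 1.83 (1.74 to 1.92). In the infarct zone all 4 were higher in TKO, with 1.66 (1.58 to 1.73) for *Slc16a1*, 2.48 (2.33 to 2.64) for *Bdh1*, 1.79 (1.75 to 1.82) for *Oxct1*, and 1.86 (1.80 to 1.91) for *Acat1*. The summed cardiomyocyte markers had a TKO over WT ratio of 2.03 there and the mitochondrial reference genes 1.85. The 4 ratios were 1.08 to 1.22 in the border zone, and the remote zone had 1.06 to 1.15, where the cardiomyocyte marker ratios were 1.20 and 1.12. *Bdh2* had ratios of 1.36 (0.639 to 2.96) in LV, 0.935 (0.720 to 1.21) in infarct tissue, 0.749 (0.456 to 1.22) in border tissue, and 1.01 (0.564 to 1.81) in remote tissue. A difference between genotypes was not detectable for *Bdh2* at this depth, since each of the 4 intervals holds 1. The median ratio of all genes was 0.993 to 1.01 in the 4 regions. With total counts it was 0.820 in the infarct zone (log2 -0.29), and all 4 genes stayed higher in the TKO infarct zone than in the WT one.

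Per cardiomyocyte marker count the TKO infarct zone was not higher for 3 of the 4 genes, with TKO over WT ratios of 0.815 for *Slc16a1*, 0.879 for *Oxct1*, and 0.915 for *Acat1*. Taken against the median of the single markers these ratios were 0.851, 0.917, and 0.954. Against the summed mitochondrial reference genes they were 0.896, 0.966, and 1.01, so *Acat1* was level with those genes. Per summed cardiomyocyte marker count, *Bdh1* was at 1.22 in the infarct zone and at 1.72 in LV, while the border zone had 0.920 and the remote zone 1.03. *Bdh1* was lowest in the WT LV library on that scale, at 2.14 counts per 1000 marker counts against 2.95 to 3.96 in the other 7 libraries, with 3.11 in the WT infarct zone. Counts of *Bdh1* per *Oxct1* count within a library need no scaling, and against *Oxct1* the WT infarct zone was low as well. They were 0.0751 (0.0722 to 0.0781) in the WT LV library and 0.0863 (0.0817 to 0.0910) in the WT infarct zone, against 0.127 (0.123 to 0.131) and 0.120 (0.115 to 0.124) in TKO. In the border zone the intervals of the 2 genotypes overlapped, at 0.120 (0.116 to 0.124) in WT and 0.123 (0.119 to 0.127) in TKO, and the remote zone had 0.0949 and 0.0982. The WT LV library, the lowest of the 8, is also the one with the most adipocyte marker RNA, whose part in the ratio was not tested.

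**Figure D3:**
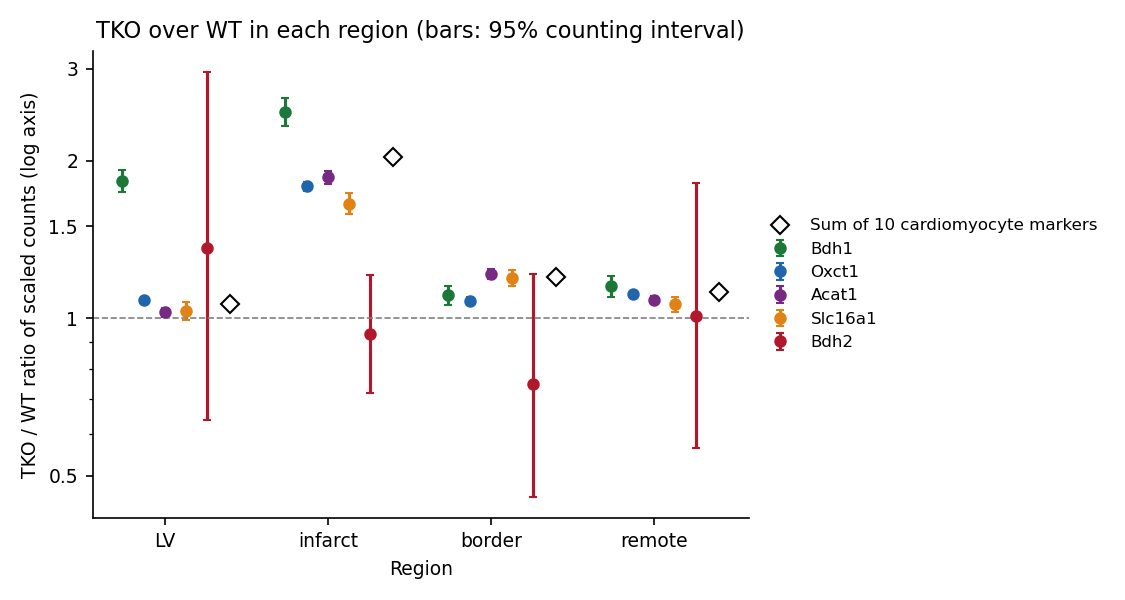
TKO over WT ratio of scaled counts in each region (log axis) for the 5 genes, with bars for the 95% exact counting interval and open diamonds for the sum of the 10 cardiomyocyte markers. In the infarct zone *Slc16a1*, *Oxct1*, and *Acat1* (1.66 to 1.86) lie below the diamond at 2.03 and *Bdh1* (2.48) above it, and in LV only *Bdh1* (1.83) stands clear of the other genes with narrow bars.

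Whether the genotype difference of the infarct zone departed from that of the other 3 regions was tested with an interaction term, which rests on 1 TKO and 1 WT infarct library. In the edgeR quasi-likelihood test, after Benjamini-Hochberg adjustment, no member was called, and 0.00769% of all genes were. The departures, higher in the TKO infarct zone, were 0.90 ± 0.32 (log2, SE) for *Bdh1*, 0.71 ± 0.15 for *Oxct1*, 0.75 ± 0.17 for *Acat1*, and 0.60 ± 0.17 for *Slc16a1*, with adjusted p-values of 0.410 to 0.570 by that test. *Bdh2* was at -0.08 ± 0.58. This result was not stable. With either LV library left out, the other is fitted by its own region term alone. Both such fits then compare the infarct zone with the border and remote zones only. They are thus not separate alternatives, and they have fewer residual degrees of freedom than the main fit. Without the WT LV library the 4 genes were called, with adjusted p-values of 0.000791 to 0.0276, where 6.35% of all genes were called higher. Without the TKO LV library they were 0.000668 to 0.0260, where 6.46% were called higher. The DESeq2 Wald test with all libraries called *Oxct1* (adjusted p = 0.00368), *Acat1* (0.00719), and *Slc16a1* (0.0479), *Bdh1* missed the threshold at 0.0540, and 2.22% of all genes were called higher. On simulated data its departure calls held 44 unchanged genes beside 126 changed ones, so its adjusted p-values are likely too low. The adjusted p-values of these 4 genes were 0.796 to 0.947 in edgeR without 1 of the border libraries and reached 1 without 1 of the remote libraries, the highest over the 12 alternatives. The cardiomyocyte markers had a median departure of 0.82, none of the 10 called, beside 0.71 for the members and 0.05 for all genes.

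Other genes of the pathway were read from lists of acetoacetate enzymes (5 genes listed, 3 in the table, 2 tested), of monocarboxylate transporters and their chaperones (11 listed, 11 in the table, 9 tested), and of receptors (2 listed, 2 in the table, 1 tested). In the infarct zone against LV, 1 of the 2 enzymes was called higher, and of the 9 transporters and chaperones 2 were called higher and 3 lower. Those called lower include *Slc16a7*, which passed the filter only through libraries where it is high. These counts are close to the shares over all genes, 28.2% higher and 28.6% lower. None of these genes was called in the other comparisons. Among the acetoacetate enzymes, *Aacs*, which activates acetoacetate in the cytosol for lipid synthesis, rose by 0.66 (log2; edgeR quasi-likelihood test, Benjamini-Hochberg adjustment, adjusted p = 0.0393), and the cytosolic thiolase *Acat2* was at -0.05 and not called.

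MCT1 reaches the membrane with basigin (*Bsg*) and embigin (*Emb*) is a related chaperone, while *Slc16a3* encodes MCT4, a transporter of glycolytic cells. *Bsg* had 1376 CPM (WT) and 1466 CPM (TKO) in LV and 430 CPM (WT) and 662 CPM (TKO) in the infarct zone, and was called lower with *Slc16a1* (-1.40). *Slc16a3* had 2.34 CPM (WT) and 2.16 CPM (TKO) in LV and 17.7 CPM (WT) and 10.2 CPM (TKO) in the infarct zone, a change of 2.57. *Emb* had 2.81 CPM (WT) and 1.39 CPM (TKO) in LV and 21.7 CPM (WT) and 13.2 CPM (TKO) in the infarct zone, a change of 3.10. The infarct zone thus held less of the MCT1 and basigin RNA and more of the MCT4 and embigin RNA than LV in both genotypes, and all 4 genes were called (edgeR quasi-likelihood test, Benjamini-Hochberg adjusted p-values of 0.000373 to 0.00600). *Slc16a3* counts per *Slc16a1* count were 0.0125 (WT) and 0.0113 (TKO) in LV and 0.235 (WT) and 0.0819 (TKO) in the infarct zone. The border zone had 0.0391 (0.0343 to 0.0444) in WT and 0.0139 (0.0113 to 0.0169) in TKO. The remote zone had 0.0189 (0.0158 to 0.0226) in WT and 0.0132 (0.0106 to 0.0162) in TKO. The WT value was thus above the TKO value in all 4 regions, though the counting intervals overlapped in the remote zone and in LV. Between genotypes over the 4 regions, *Emb* was at -0.98 and *Slc16a3* at -0.68, with adjusted p-values of 0.134 and 0.219 (edgeR quasi-likelihood test, Benjamini-Hochberg adjustment). The summed macrophage and leukocyte markers had TKO over WT ratios of 0.660 to 0.874 in the 4 regions, and 1 of the 7, *Ptprc*, was called lower in TKO. The part of those cells in the *Emb* and *Slc16a3* values was not tested. *Slc16a7* (MCT2) had 56 counts in each LV library and 71 and 73 in the remote zone, and 1 and 0 counts in the WT and TKO infarct zones, at or under the floor, and was called lower. *Slc16a13* was called lower (-0.69), though with total counts its WT infarct over LV ratio was 1.12, and *Slc16a4*, *Slc16a6*, *Slc16a11*, and *Slc16a12* were not called. The ketone receptor gene *Hcar2*, carried by myeloid cells, had 14 and 16 counts in LV and 141 (WT) and 41 (TKO) in the infarct zone. It passed the filter on its mean level only through the 2 infarct libraries, so no call is given for it. All 7 macrophage and leukocyte markers were called higher in the infarct zone. The part of those cells in the *Hcar2* value was not tested.

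**Figure D4:**
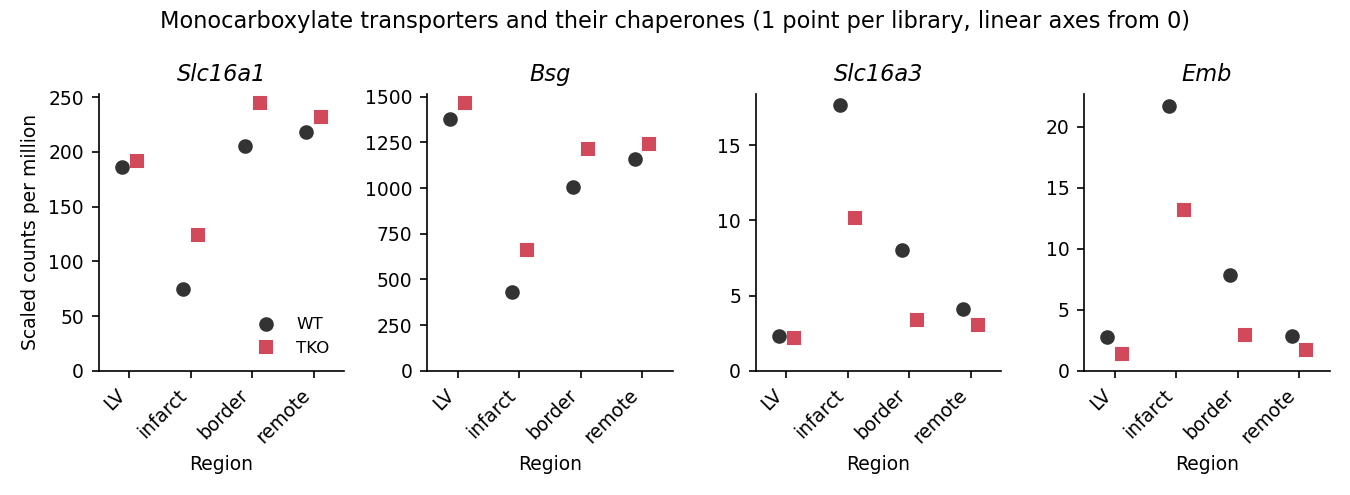
CPM (linear axes from 0, TMM scaling) of *Slc16a1*, *Bsg*, *Slc16a3*, and *Emb* by region, with 1 point per library, circles for WT and squares for TKO. *Slc16a1* and *Bsg* are lowest and *Slc16a3* and *Emb* highest in the infarct zone of each genotype.

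The members' patterns over the 8 libraries were described by Pearson's r of log2(CPM + 1), with no test, since the 8 libraries share 2 genotypes, 4 regions, and the low cardiomyocyte RNA of the infarct zone. *Oxct1* and *Acat1* were the closest pair (r = 0.994), *Bdh1* correlated with the other 3 genes of uptake and oxidation at 0.897 to 0.932, and *Bdh2* with all 4 at -0.732 to -0.947. The 3 genes most like *Acat1* were *Hsdl2*, *Ung*, and *Ndufs1*, each with r of at least 0.999, and those most like *Oxct1* were *Ldb3*, *Srl*, and *Phtf2* (0.998 to 0.999). *Ndufs1* is a complex I subunit and *Ldb3* and *Srl* are genes of the muscle Z-disc and sarcoplasmic reticulum. *Rhot1*, *Nebl*, and *Cav1* were most like *Slc16a1* (0.994 to 0.996), and *Inpp5b*, *Ltbp3*, and *Arhgef40* most like *Bdh2* (0.995 each). The nearest to *Bdh1* were *Irx4* (0.982), *Ehd4* (0.978), and *Ppargc1b* (0.978). *Irx4*, a transcription factor of ventricular muscle, had 27.1 CPM (WT) and 44.2 CPM (TKO) in LV and 9.90 CPM (WT) and 22.3 CPM (TKO) in the infarct zone. It was picked for its likeness to *Bdh1* over these same libraries, so the order it shares with *Bdh1* there is no separate evidence.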

How the data were processed

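RNA of heart tissue from 8 groups (WT and TKO, 4 regions) was sequenced as 1 library per group. Adapters were removed by the authors in Trim Galore 0.6.5, transcripts were quantified in kallisto 0.46 (mm10 build) and then summed per gene by tximport, giving the deposited estimated counts, one value per gene and library, whole and not normalized (the submitters' processing notes also name edgeR 3.34.1). The annotation release is not given in the sources used here. Samples were grouped by their labels.

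TMM factors and quasi-likelihood tests (Benjamini-Hochberg adjustment) used edgeR 4.0.16 under R 4.3.3 and the 12999 genes whose mean CPM (by total counts) reached 1, from all 8 libraries with region and genotype as terms, plus an infarct interaction for the departure. Called means an adjusted p under 0.05. With 1 library per group, ratios carry exact 95% binomial (Clopper-Pearson) intervals and no p-value. Since molecular identifiers were not used, reads are not independent molecules, and intervals and floors cover counting error only. No group has a replicate, so the p-values rest on how the genotype difference varies between regions, not on a spread between mice. The additive fit left 3 residual degrees of freedom. On simulated data edgeR recovered, of 3-fold changes, 97.4% between genotypes, 82.1% in the infarct zone, and 48.2% for the departure. Apart from the planted change, each simulated gene had the same mean level in all libraries, without the zone differences of the real data. The recovered shares therefore do not apply to smaller changes, such as the genotype differences of the members.

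Genes were placed on GRCm38 by their Ensembl identifiers (GENCODE vM21). The members and lists were chosen with earlier results of these data known. The genes named are the 5 members, *Tigar*, the pathway lists, the 3 genes most like each member by Pearson's r, and markers where a result turns on them. *Cs* and *Sdha* are given as examples of their list. Some genes that the rule covers were left out of the text. Alternatives were total counts, DESeq2 1.42.0 size factors and Wald test, TMM without mitochondrial DNA-encoded genes, 2 other filters, no region block, and leaving out libraries or regions.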

Additional observations from a re-analysis of the deposited data

How the results depend on the processing

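With total counts, 56 genes were called between genotypes, 200 for border against LV, and 18 for remote against LV. DESeq2's Wald test called 342 between genotypes, 576 for border, 162 for remote, and 288 for the departure. Without region blocks 8 genes were called between genotypes. With no filter and with a minimum of 10 counts in every library, 3 genes were called in the remote zone each time, and the latter gave 0 for the departure (edgeR, 1026 genes at an unadjusted p under 0.05). Leaving out libraries or regions moved the counts over 3 to 80 between genotypes, 4716 to 7243 for infarct, 1 to 388 for border, 0 to 65 for remote, and 0 to 926 for the departure. The highest counts between genotypes (80) and in the border zone (388) came without LV of both genotypes and without the TKO LV library, and the fewest infarct calls (4716) without the WT infarct library.

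Among the members' tests 340 kept their direction and side of the threshold, 11 became called, and 2 lost a call, the latter given above for *Bdh1* and *Slc16a1*. None of the values that changed sign had been called. Leaving out a library gave -0.17 to 0.47 for *Bdh1* (border) and -0.42 to 0.15 (remote). It gave -0.24 to 0.011 for *Oxct1* and -0.37 to 0.022 for *Acat1* in the remote zone. For *Bdh2* it gave -0.17 to 0.086 between genotypes and -0.31 to 0.11 for the departure. Of the members' library ratios 123 stayed within their counting interval and 27 moved. None whose interval left out 1 changed direction. The TKO over WT ratio of *Bdh2* in the remote zone, with 26 counts on each side, went from 1.01 to 0.9985 with total counts. The cause of these shifts was not tested. The labels carry no replicate numbers, and the region block, which sets TKO beside WT within a region, is the pairing that was made. Depth limits *Bdh2* alone among the members, at 14 to 138 counts.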
